A study of Homo sapiens with 12 samples.

Results

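A set of 10 genes that act as brakes on the ERK kinase pathway, or switch on first when it fires, were followed in LNCaP prostate cancer cells under androgen and after loss of the transcription factor SRF. They are the dual-specificity phosphatases DUSP4, DUSP5, DUSP6 and DUSP10, the Sprouty genes SPRY1 and SPRY2, and the immediate-early genes EGR1, JUN, IER2 and IER3. Every probe set that the array's annotation gives to one of them was taken, which made 21 of the 54675 probe sets on the array and 10 of the 19775 genes that have a probe set with 1 symbol. Their levels chose nothing, but the genes were picked with earlier results of these data known. The 12 arrays form 4 groups of 3: SRF siRNA with R1881, control siRNA with R1881, SRF siRNA with ethanol vehicle, and control siRNA with ethanol vehicle. LNCaP is an androgen-responsive line derived from a lymph node metastasis of a prostate carcinoma, and R1881 (methyltrienolone) is a synthetic androgen. In all groups, cells were deprived of androgen for 48 h and transfected, and 42 h later they received 5 nM R1881 or vehicle, for 48 h. Whether the 3 arrays of a group were grown separately is not given in the labels, and p-values therefore cover only the array-to-array spread, which may be technical. All RNA came from whole cultures of a single line, so fewer expressing cells and less RNA per cell cannot be told apart.

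Growth factor receptors signal through RAS, RAF, MEK and ERK, and active ERK phosphorylates ternary complex factors such as ELK1, which sit beside SRF at CArG boxes, the A- and T-rich DNA elements that SRF binds. Immediate-early genes are transcribed within minutes of such a signal without new protein synthesis, and EGR1 is a textbook SRF target of this kind. The feedback genes close the loop: DUSP phosphatases remove the activating phosphates from ERK or its sister kinases, and Sprouty proteins hold back signalling upstream of ERK. Immediate-early responses are usually measured within hours of a stimulus, whereas these RNAs were taken after 48 h of androgen.

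The silenced gene was checked first. SRF had log2 signals of 4.89, 4.98 and 4.73 with SRF siRNA and R1881, against 6.50, 6.25 and 6.16 with control siRNA and R1881. With vehicle it had 4.56, 5.06 and 4.58 under SRF siRNA, against 5.91, 6.14 and 6.17 under control siRNA. The groups did not overlap, and SRF siRNA left 36.9% of the control level under R1881 and 39.5% under vehicle. All 8 measured luminal prostate markers were above a log2 signal of 4 on every array, and both measured basal keratins (KRT5 and KRT14) were below it on every array. Of 7 fibroblast markers, 5 were never above 4, but COL1A1 was above it on all 12 arrays and COL3A1 on 7. COL3A1 averaged 4.07 with SRF siRNA and R1881, 2.97 with control siRNA and R1881, 7.91 with SRF siRNA and vehicle, and 6.45 with control siRNA and vehicle, and its part in the results was not tested. Of 4 measured leukocyte markers, 3 were never above 4, and LYZ was above it on 1 array. LYZ averaged 4.03 with SRF siRNA and R1881, 2.89 with control siRNA and R1881, 2.84 with SRF siRNA and vehicle, and 2.84 with control siRNA and vehicle, and its part in the results was not tested. RNA quality was read from GAPDH as the log2 signal of its 3-prime control probe set minus that of its 5-prime one, which averaged 0.49 ± 0.14 with SRF siRNA and R1881, 0.46 ± 0.02 with control siRNA and R1881, 0.36 ± 0.04 with SRF siRNA and vehicle, and 0.14 ± 0.09 with control siRNA and vehicle (SD, n = 3 each). This GAPDH difference thus moved with the groups, and calls of the 6 tested members that were lost with it as a covariate are named beside each gene. Other genes and the EGR1 probe sets have no values reported with that covariate.

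Values are log2 signals made with GCRMA, a background correction and normalization for Affymetrix arrays. One unit is a 2-fold difference, and signals of different probe sets are not comparable as levels. Testing required a value above 4 on 3 or more of the 12 arrays, and the brightest tested probe set stood for a gene. Of the 21 probe sets, 10 passed. They covered DUSP4, DUSP5, DUSP10, SPRY1, JUN and IER2, whereas no probe set of DUSP6, SPRY2, EGR1 or IER3 passed. A gene is said to rise or fall when limma's moderated test gave an adjusted p (Benjamini-Hochberg over 10265 genes) under 0.05, and all adjusted p-values of genes are of this kind. These thresholds call a large share of all genes, so a call by itself does not set a gene apart. A lack of overlap between groups of 3 arrays was also common (59.2% to 67.5% of all genes) and does not set a gene apart either.

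**Figure D1:**
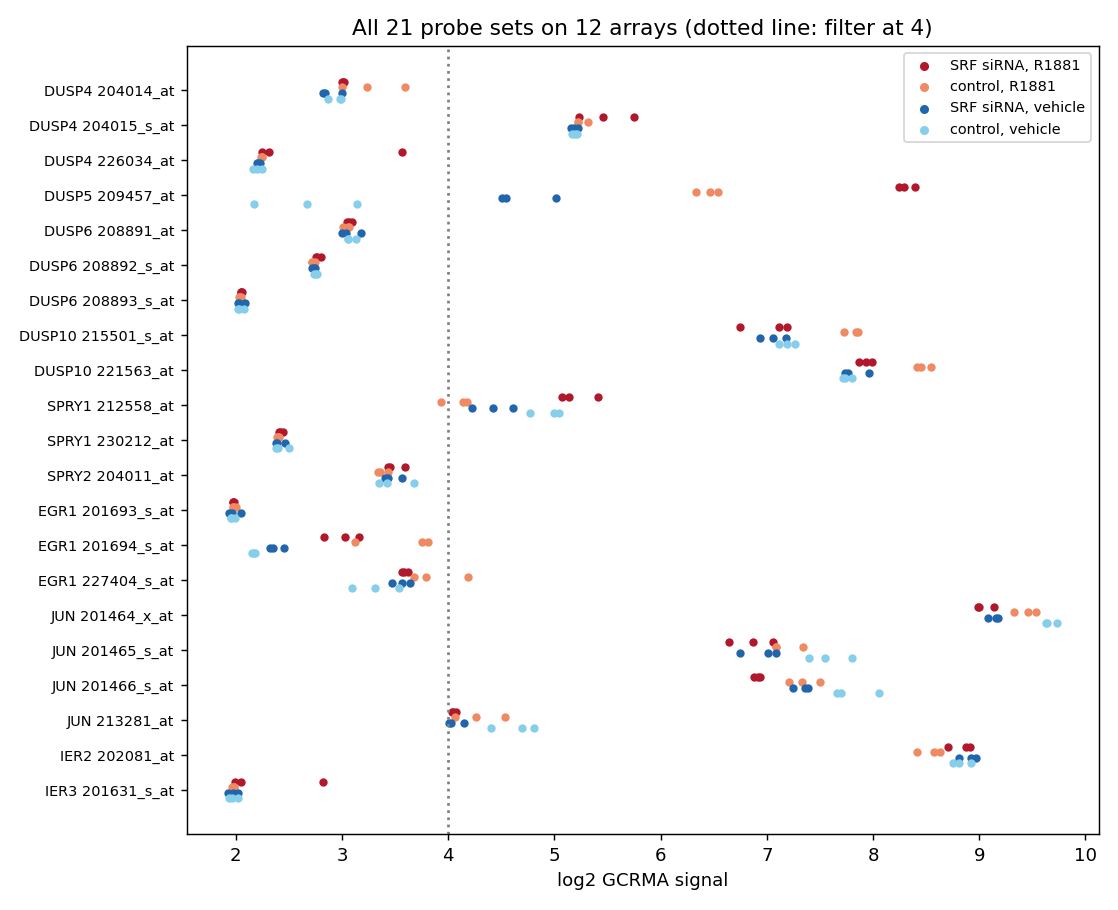
Log2 GCRMA signal (horizontal axis) of each of the 21 probe sets (rows) on the 12 arrays, with 1 point per array, coloured by group, and a dotted line at the filter value of 4. DUSP5 spreads over the widest range, and the DUSP6, SPRY2 and IER3 probe sets stay left of the line on every array.

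R1881 changed 5 of the 6 tested genes in control cells: DUSP5 and DUSP10 rose, and SPRY1, JUN and IER2 fell. In all, 60.6% of genes were called in this comparison, 26.9% as higher and 33.8% as lower. In SRF-silenced cells R1881 raised DUSP5, SPRY1 and DUSP4, and no tested member fell, where 53.1% of all genes were called, 25.5% as higher and 27.7% as lower. The median log2 change of the 6 genes was 0.20 in SRF-silenced cells and -0.08 in control cells, against -0.03 and -0.05 over all genes tested. SRF siRNA under R1881 raised DUSP5, SPRY1 and IER2 and lowered DUSP10 and JUN, where 59% of genes were called, 33.6% as higher and 25.4% as lower. Under vehicle it raised DUSP5 and lowered SPRY1 and JUN, where 55.7% were called, 30.7% as higher and 25% as lower. For 2 of the 6 genes, SPRY1 (higher) and DUSP10 (lower), the R1881 effect in silenced cells differed from that in control cells, where 23.8% of genes had such a difference, 13.2% higher and 10.5% lower. Requiring a 2-fold change as well left 1 member for R1881 with SRF siRNA (10.7% of all genes) and 1 with control siRNA (14.1%), 2 for SRF siRNA under R1881 (11.6%) and 1 under vehicle (9.28%), and 1 for the difference of effects (5.01%). The comparisons share arrays: R1881 against vehicle in control cells and SRF siRNA against control siRNA under R1881 both use the arrays of control siRNA with R1881.

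**Figure D2:**
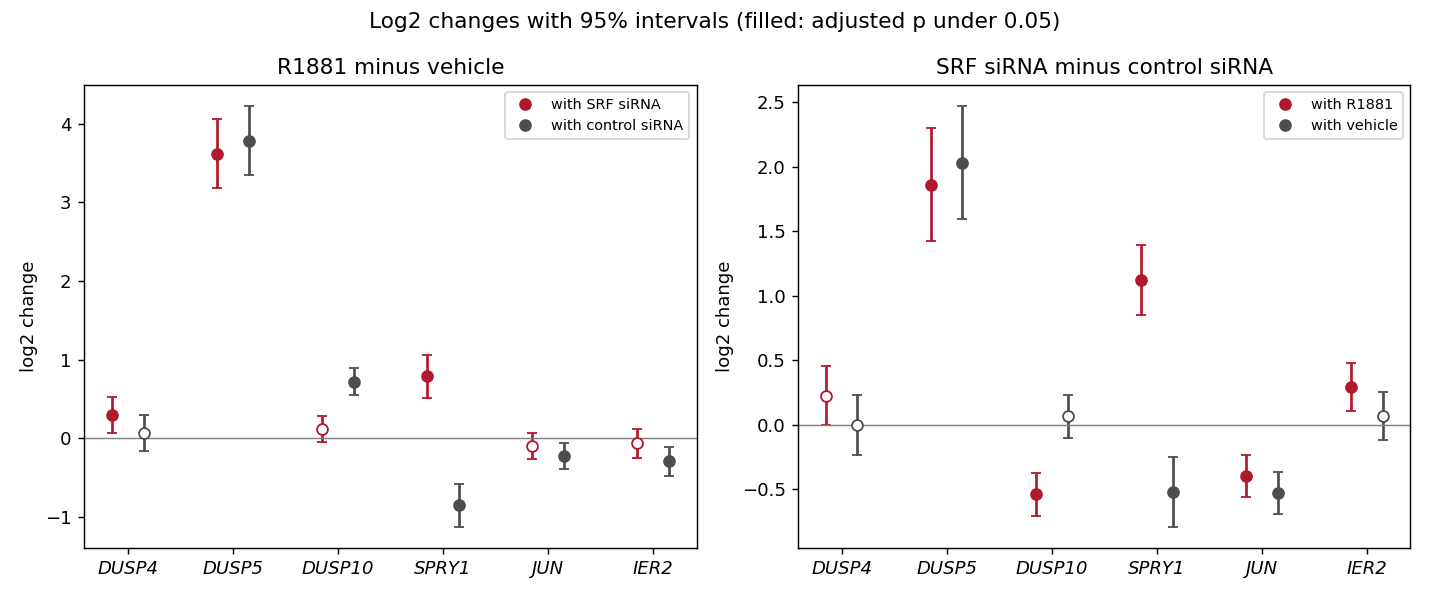
Log2 change (vertical axis) with its 95% interval for the 6 tested genes, for R1881 minus vehicle (left) and SRF siRNA minus control siRNA (right); filled points have an adjusted p under 0.05. SPRY1 lies above 0 with SRF siRNA (0.79) and below it with control siRNA (-0.85) in the left panel.

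DUSP5 encodes a nuclear phosphatase that acts on ERK, and its transcript rose with androgen and again with SRF loss. Its single probe set read 8.29, 8.24 and 8.39 with SRF siRNA and R1881, 6.54, 6.33 and 6.47 with control siRNA and R1881, 4.55, 5.02 and 4.51 with SRF siRNA and vehicle, and 2.17, 3.14 and 2.67 with control siRNA and vehicle. The 4 groups did not overlap at any step of that order. Across the R1881 and SRF siRNA comparisons, 59.2% to 67.5% of all genes had groups that did not overlap. R1881 raised DUSP5 by 3.62 ± 0.20 (log2 change ± SE, adjusted p = 2.37e-08) in SRF-silenced cells and by 3.79 ± 0.20 (adjusted p = 1.18e-08) in control cells. Only 61 of 10265 genes in silenced cells and 63 in control cells had a change of that size or more, up or down. SRF siRNA raised DUSP5 by 1.86 ± 0.20 under R1881, which is 3.64-fold (adjusted p = 7.56e-06), and by 2.03 ± 0.20 under vehicle, which is 4.09-fold (adjusted p = 4.91e-06). The R1881 effects differed by -0.17 ± 0.28, with a 95% interval from -0.79 to 0.45 (adjusted p = 0.714). No array of control siRNA with vehicle was above 4, so every change measured against that group rests on GCRMA's background estimate. With all values under 4 set to 4, the R1881 effect was 3.62 with SRF siRNA and 2.45 with control siRNA, and their difference became 1.17 (adjusted p = 0.00028). DUSP5 stayed higher with SRF siRNA under vehicle on that scale, by 0.69, whereas the comparison under R1881, where all 6 arrays exceed 4, kept its value of 1.86.

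DUSP10 encodes a phosphatase with a preference for the stress kinases p38 and JNK over ERK. It rose with R1881 in control cells and was not called in silenced cells, and the difference between these effects passed the test. Its brightest probe set read 7.87, 7.99 and 7.94 with SRF siRNA and R1881, 8.41, 8.45 and 8.55 with control siRNA and R1881, 7.96, 7.76 and 7.73 with SRF siRNA and vehicle, and 7.73, 7.72 and 7.80 with control siRNA and vehicle. The 3 arrays of control siRNA with R1881 lay above the other 9, and the other groups lay close together. R1881 changed DUSP10 by 0.12 ± 0.08 (95% interval -0.05 to 0.28, adjusted p = 0.230) with SRF siRNA, against a rise of 0.72 ± 0.08 (adjusted p = 5.83e-06) with control siRNA. The difference of these effects was -0.60 ± 0.11 (95% interval -0.84 to -0.37, adjusted p = 0.00192). Of all genes tested, 14.6% had a difference at least as large. SRF siRNA lowered DUSP10 to 68.9% of control under R1881 (-0.54 ± 0.08, adjusted p = 7.62e-05) and changed it by 0.07 ± 0.08 under vehicle (adjusted p = 0.488). The second probe set of DUSP10 showed the same pattern, with an R1881 effect of -0.04 with SRF siRNA, against 0.62 ± 0.11 with control siRNA, and a difference of -0.66 ± 0.16 (adjusted p = 0.0149 over the 21584 probe sets that passed the filter, of which 18.6% were called).

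DUSP4, another nuclear ERK phosphatase, moved little. Its 1 tested probe set of 3 read 5.46, 5.23 and 5.75 with SRF siRNA and R1881, 5.32, 5.22 and 5.22 with control siRNA and R1881, 5.16, 5.18 and 5.22 with SRF siRNA and vehicle, and 5.21, 5.20 and 5.16 with control siRNA and vehicle. The spread among the 3 arrays of SRF siRNA with R1881 (SD 0.26) exceeded that of the other groups (SD 0.03 to 0.06). R1881 raised it by 0.29 ± 0.11 (adjusted p = 0.0340) in SRF-silenced cells, and the change in control cells was 0.06 ± 0.11 (adjusted p = 0.627). The call in silenced cells was lost when any of 5 of the 6 SRF siRNA arrays was left out, all but the second with R1881 (adjusted p = 0.0564 to 0.128), and with the GAPDH difference as a covariate (0.18, adjusted p = 0.218). SRF siRNA changed DUSP4 by 0.23 ± 0.11 under R1881 (adjusted p = 0.0830), a difference that was called without the second array of SRF siRNA with R1881 (0.35, adjusted p = 0.0070), and by -0.00 ± 0.11 under vehicle (adjusted p = 0.989). The difference of R1881 effects was 0.23 ± 0.15 (adjusted p = 0.302). Its other probe sets stayed below 4 on every array. DUSP6, the cytoplasmic ERK phosphatase, had 3 probe sets, whose group means lay between 2.04 and 3.08, and none was called in any comparison in a fit of all 54675 probe sets without a filter.

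SPRY1 gave the clearest split between SRF-silenced and control cells. Sprouty-1 is an inhibitor of growth factor signalling that is itself induced by that signalling. Its probe set read 5.14, 5.41 and 5.07 with SRF siRNA and R1881, 3.93, 4.18 and 4.14 with control siRNA and R1881, 4.22, 4.61 and 4.43 with SRF siRNA and vehicle, and 5.04, 5.00 and 4.77 with control siRNA and vehicle. R1881 raised SPRY1 in silenced cells and lowered it in control cells, with no overlap between R1881 and vehicle arrays in either. Of all genes, 59.2% had no such overlap with SRF siRNA and 67.5% had none with control siRNA. The rise with SRF siRNA was 1.73-fold (0.79 ± 0.12, adjusted p = 0.000202), and the fall with control siRNA left 55.3% of the vehicle level (-0.85 ± 0.12, adjusted p = 7.75e-05). The difference of these effects was 1.64 ± 0.18 (95% interval 1.26 to 2.03, adjusted p = 4.82e-05), and 1.51% of genes tested had a difference of that size or more. Among all genes, 99 of 10265 (0.964%) fell with R1881 in control cells and rose with it in silenced cells by this test, and 161 (1.57%) went opposite ways in either sense. SRF siRNA raised SPRY1 to 2.18-fold of control under R1881 (1.13 ± 0.12, adjusted p = 8.73e-06) and lowered it to 69.9% of control under vehicle (-0.52 ± 0.12, adjusted p = 0.00379). The fall under vehicle lost its call with the GAPDH difference as a covariate (-0.43, adjusted p = 0.0964). The order of the groups ran from SRF siRNA with R1881 through control siRNA with vehicle and SRF siRNA with vehicle to control siRNA with R1881, and the first step of it, 0.27, did not pass the test (adjusted p = 0.077). SPRY1's second probe set lay between 2.38 and 2.50 on all arrays and gave no independent reading. The tested probe set lay near the filter value of 4 with control siRNA and R1881 (mean 4.08, lowest array 3.93). Sizes measured against that group may therefore depend on the background estimate. SPRY2, a Sprouty with the same role, had values from 3.34 to 3.68 across the 12 arrays, all under the filter, and no comparison of it was called.

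**Figure D3:**
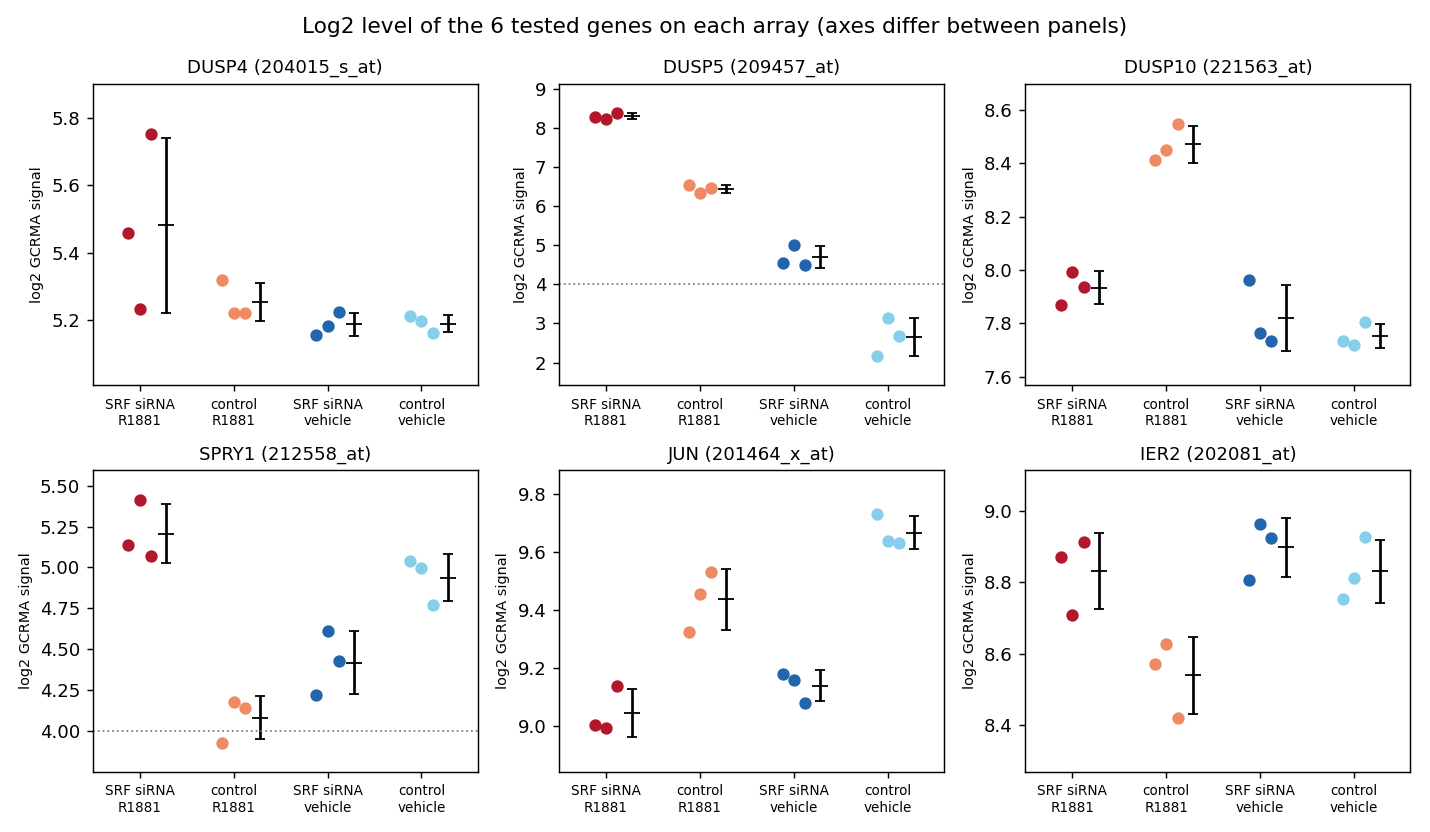
Log2 GCRMA signal (vertical axis, scaled separately in each panel) of the 6 tested genes, with 1 point per array and the mean ± SD of 3 arrays beside each group; the dotted line marks 4. The 4 groups of DUSP5 are separate from each other, and in DUSP10 the arrays of control siRNA with R1881 stand above the other 9.

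JUN, a subunit of the AP-1 transcription factor, fell with SRF siRNA under both hormone conditions. Its brightest probe set read 9.00, 8.99 and 9.14 with SRF siRNA and R1881, 9.32, 9.46 and 9.53 with control siRNA and R1881, 9.18, 9.16 and 9.08 with SRF siRNA and vehicle, and 9.73, 9.64 and 9.63 with control siRNA and vehicle. Every SRF siRNA array lay below every control siRNA array. Between SRF siRNA and control siRNA, the groups of 66.6% of all genes did not overlap under R1881, and of 61.2% under vehicle. The SRF siRNA change was -0.39 ± 0.08 under R1881 (76.1% of control, adjusted p = 0.000695) and -0.53 ± 0.08 under vehicle (69.3% of control, adjusted p = 8.96e-05). R1881 changed JUN by -0.10 ± 0.08 in silenced cells (adjusted p = 0.309) and lowered it, with a log2 change of -0.23 ± 0.08, in control cells (adjusted p = 0.0191). The difference of those effects was 0.13 ± 0.11 (adjusted p = 0.402), so a difference between silenced and control cells was not shown. All 4 JUN probe sets passed the filter, and in the fit of probe sets all 4 fell with SRF siRNA under vehicle (-0.47 to -0.63) and all 4 fell with R1881 in control cells (-0.23 to -0.46), where 49% and 55.7% of the 21584 probe sets were called. With R1881 in silenced cells 1 of the 4 fell (-0.42 ± 0.11, adjusted p = 0.00797), where 47.3% were called. Under R1881, where 53% of probe sets were called, SRF siRNA lowered 2 of the 4 (log2 changes of -0.39 and -0.44), and the other two had -0.31 (adjusted p = 0.0787) and -0.24 (adjusted p = 0.142). The fall with R1881 in control cells lost its call with the GAPDH difference as a covariate (adjusted p = 0.112), without the first array of control siRNA with vehicle (adjusted p = 0.0652) and without the first of control siRNA with R1881 (adjusted p = 0.0910). By its suffix the brightest JUN probe set may hold probes that also match other transcripts.

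EGR1, a zinc-finger transcription factor and classical SRF target, was dim. Of its 3 probe sets, the first described is the one with the largest R1881 change, not the brightest, a choice that favours a large effect. It read 3.16, 2.83 and 3.03 with SRF siRNA and R1881, 3.12, 3.81 and 3.76 with control siRNA and R1881, 2.35, 2.32 and 2.45 with SRF siRNA and vehicle, and 2.18, 2.15 and 2.18 with control siRNA and vehicle. All these values lie under the filter of 4, but the R1881 arrays lay above the vehicle arrays with either siRNA. In the fit of all 54675 probe sets without a filter, where 20.4% were called for R1881 in control cells, this probe set rose with R1881 by 0.64 ± 0.16 with SRF siRNA (adjusted p = 0.0240) and by 1.40 ± 0.16 with control siRNA (adjusted p = 0.000165). It was lower with SRF siRNA under R1881, with a change of -0.55 ± 0.16 and overlapping groups (adjusted p = 0.0412). The difference of R1881 effects was -0.76 ± 0.23 (adjusted p = 0.107). The share of all probe sets called in that fit is not reported for these comparisons or for R1881 in silenced cells. The brightest probe set read 3.62, 3.58 and 3.56 with SRF siRNA and R1881, and 3.68, 4.19 and 3.79 with control siRNA and R1881. With vehicle it read 3.64, 3.47 and 3.57 under SRF siRNA, and 3.31, 3.09 and 3.54 under control siRNA. It rose by 0.57 ± 0.14 with R1881 in control cells (adjusted p = 0.0142), whereas its change with R1881 in silenced cells was 0.03 ± 0.14, with overlapping groups (adjusted p = 0.933). The difference of its R1881 effects was -0.54 ± 0.20 (adjusted p = 0.191). Its change of -0.30 with SRF siRNA under R1881 was not called (adjusted p = 0.229). The third stayed near 1.98 on every array. At these signals the sizes depend on the background estimate.

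IER2, an immediate-early gene with a nuclear product, was bright and moved little. It read 8.87, 8.71 and 8.91 with SRF siRNA and R1881, 8.57, 8.63 and 8.42 with control siRNA and R1881, 8.81, 8.96 and 8.92 with SRF siRNA and vehicle, and 8.75, 8.81 and 8.93 with control siRNA and vehicle. The 3 arrays of control siRNA with R1881 were below the other 9, which overlapped each other. R1881 changed IER2 by -0.07 ± 0.09 with SRF siRNA (adjusted p = 0.533) and lowered it, with a log2 change of -0.29 ± 0.09, with control siRNA (adjusted p = 0.0104). SRF siRNA raised it 1.22-fold under R1881 (0.29 ± 0.09, adjusted p = 0.0106), and its change under vehicle was 0.07 ± 0.09 (adjusted p = 0.530). The difference of R1881 effects was 0.23 ± 0.12 (adjusted p = 0.207). Without the third array of control siRNA with R1881 both calls were lost (adjusted p = 0.0511 for R1881 and 0.0523 for SRF siRNA), the SRF siRNA call was also lost without the third array of both SRF siRNA groups (adjusted p = 0.0526), and the R1881 call was lost with the GAPDH difference as a covariate (adjusted p = 0.156). IER3, an immediate-early gene linked to survival, read 1.99, 2.05 and 2.83 with SRF siRNA and R1881, and its means in the other 3 groups were 1.97 to 1.98. No comparison of IER3 was called.

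Upstream sequences were read for the members whose transcripts the results turn on, as RefSeq gives them on GRCh38.p14. Each is the 250 bases before a transcription start, written 5′ to 3′ along the gene's strand. Capitals mark CArG boxes and matches to TGANNTCA, a loose pattern that includes sites JUN and ATF proteins can bind. EGR1 is shown because it is a known SRF target (chr5:138465229-138465478, plus strand), and JUN because it fell with SRF siRNA (chr1:58784048-58784297, minus strand). SPRY1 (first start, chr4:123396545-123396794, plus strand) and DUSP10 (first start, chr1:221742090-221742339, minus strand) are shown because their R1881 effects differed between silenced and control cells.
EGR1: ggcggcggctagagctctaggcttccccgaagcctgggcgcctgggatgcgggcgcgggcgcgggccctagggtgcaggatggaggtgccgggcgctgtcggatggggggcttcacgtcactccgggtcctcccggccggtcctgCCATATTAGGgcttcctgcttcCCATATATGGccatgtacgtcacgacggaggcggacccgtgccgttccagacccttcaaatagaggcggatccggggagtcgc
JUN: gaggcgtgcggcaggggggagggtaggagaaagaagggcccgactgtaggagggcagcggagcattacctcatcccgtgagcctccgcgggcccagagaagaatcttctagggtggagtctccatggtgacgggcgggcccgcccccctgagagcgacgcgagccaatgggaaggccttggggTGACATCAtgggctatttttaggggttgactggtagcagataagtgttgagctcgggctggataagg
SPRY1: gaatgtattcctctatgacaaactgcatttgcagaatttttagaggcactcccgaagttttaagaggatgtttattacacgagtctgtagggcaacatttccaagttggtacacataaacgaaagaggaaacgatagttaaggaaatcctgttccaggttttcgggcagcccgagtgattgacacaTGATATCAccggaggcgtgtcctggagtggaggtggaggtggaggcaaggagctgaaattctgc
DUSP10: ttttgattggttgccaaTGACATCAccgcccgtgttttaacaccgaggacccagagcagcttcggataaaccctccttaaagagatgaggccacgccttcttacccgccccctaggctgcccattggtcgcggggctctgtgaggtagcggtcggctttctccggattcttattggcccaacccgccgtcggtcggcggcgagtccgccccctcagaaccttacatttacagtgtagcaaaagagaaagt

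Windows of 7 of the 10 genes were searched (DUSP6, DUSP10, SPRY1, SPRY2, EGR1, JUN and IER2), 11 in all since some genes have several starts. DUSP4 was left out of the search, and no window was found for DUSP5 or IER3. Both strands were searched for the CArG box, for TGANNTCA, for the AP-1 motif TGANTCA, for AGAACA, which is part of an androgen receptor element, and for the ETS family core CCGGAA. EGR1's window held 2 CArG boxes, CCATATTAGG from 105 to 96 bases and CCATATATGG from 83 to 74 bases before the start. No other searched member window held one, and 1.16% of 35116 windows of the same length in RefSeq did. TGANNTCA stood in the windows of JUN (TGACATCA, 67 to 60 bases upstream) and of SPRY1's first start (TGATATCA, 64 to 57) but not its second. Both starts of DUSP10 held it (TGACATCA, 233 to 226, and TGACCTCA, 46 to 39), and 10.1% of all windows did. CCGGAA was in the windows of SPRY1's second start, SPRY2's first start and IER2, against 14.5% of all windows. AGAACA was in the windows of SPRY2 at 2 of its 3 starts, against 12.4% of all windows. TGANTCA was in no searched member window, against 6.57%. These are matches of letters within a short window and say nothing of binding in these cells.

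Among 13 tested genes of 17 listed as other ERK feedback inhibitors, R1881 raised 3 and lowered 2 with SRF siRNA, and raised 4 and lowered 3 with control siRNA. That is 38.5% and 53.8% called, below the 53.1% and 60.6% of all genes. ERRFI1, which binds and inhibits the EGF receptor, rose most in both, by 3.59 ± 0.09 with SRF siRNA and 3.13 ± 0.09 with control siRNA, and the effects differed by 0.46 ± 0.13 (adjusted p = 0.0239). IL17RD, a membrane inhibitor of FGF signalling also called SEF, fell in control cells, with a change of -2.02 ± 0.28, whereas its change in silenced cells was -0.24 ± 0.28 (adjusted p = 0.488). The difference for IL17RD was 1.77 ± 0.40 (adjusted p = 0.0071). IL17RD averaged 3.71 with control siRNA and R1881, under 4, so both sizes depend on the background estimate. SRF siRNA raised 5 and lowered 1 of the 13 under R1881 (46.2% called, against 59% of all genes), and raised 7 and lowered none under vehicle (53.8%, against 55.7%), where the list's median change was 0.29 against 0.04 over all genes. SPRED2, a Sprouty-related inhibitor of RAS-RAF signalling, rose in both SRF comparisons, by 0.64 ± 0.10 under R1881 and 0.52 ± 0.10 under vehicle. SPRY4, of the Sprouty family, averaged 4.10 with SRF siRNA and 3.04 with control siRNA under vehicle, and 3.78 with SRF siRNA and 3.44 with control siRNA under R1881. Its control siRNA means lay under 4, so SPRY4 passed the filter through its SRF siRNA arrays, and its call as higher under vehicle is no support for the list.

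Of the other immediate-early genes, 22 of 33 listed were tested, and R1881 raised 10 and lowered 5 with SRF siRNA (68.2% called, against 53.1% of all genes), and raised 11 and lowered 7 with control siRNA (81.8%, against 60.6%). The median size of the R1881 change, whichever way it went, was 0.43 for this list and 0.29 for all genes in silenced cells, and 1.22 for this list and 0.36 for all genes in control cells. MAFF, a small MAF transcription factor, rose by 2.94 ± 0.20 with SRF siRNA and 2.42 ± 0.20 with control siRNA. ATF3, a stress-induced transcription factor, rose by 2.00 ± 0.12 with SRF siRNA and 1.85 ± 0.12 with control siRNA, and it was lower with SRF siRNA under both R1881 (-0.70 ± 0.12) and vehicle (-0.84 ± 0.12). JUNB, the sister of JUN, went against it: SRF siRNA raised JUNB by 1.31 ± 0.08 under R1881 (adjusted p = 5.19e-08), and under vehicle its change was 0.11 ± 0.08 (adjusted p = 0.233). R1881 raised JUNB by 0.45 ± 0.08 with SRF siRNA and lowered it, with a log2 change of -0.75 ± 0.08, with control siRNA, a difference of 1.20 ± 0.11 (adjusted p = 1.37e-05) with the same signs as for SPRY1.

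The R1881 effect differed with SRF siRNA for 11 of these 22 genes, 6 upward and 5 downward, which is 50%, against 23.8% of all genes. CCN1, a secreted matrix protein and SRF target, rose with R1881 by 1.59 ± 0.11 in control cells, whereas its change in silenced cells was 0.15 ± 0.11 (adjusted p = 0.286). Its difference was -1.44 ± 0.16 (adjusted p = 5.36e-05). KLF10, a zinc-finger factor induced by TGF-beta, fell with R1881 in control cells, with a change of -1.12 ± 0.10, against a change of 0.00 ± 0.10 in silenced cells, a difference of 1.12 ± 0.14 (adjusted p = 0.000156). IER5, an immediate-early gene like IER2, was higher with SRF siRNA by 2.01 ± 0.19 under R1881 and by 0.64 ± 0.19 under vehicle. Its change with R1881 was -1.78 ± 0.19 in control cells and -0.42 in silenced cells. That difference, 1.36 ± 0.26 (adjusted p = 0.00289), was the largest of the 6 upward ones. FOS, FOSB and FOSL1, the AP-1 partners of JUN, did not reach 4 on any array, with highest values of 2.46, 2.33 and 2.53. EGR2 and BTG2 were not analysed here.

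**Figure D4:**
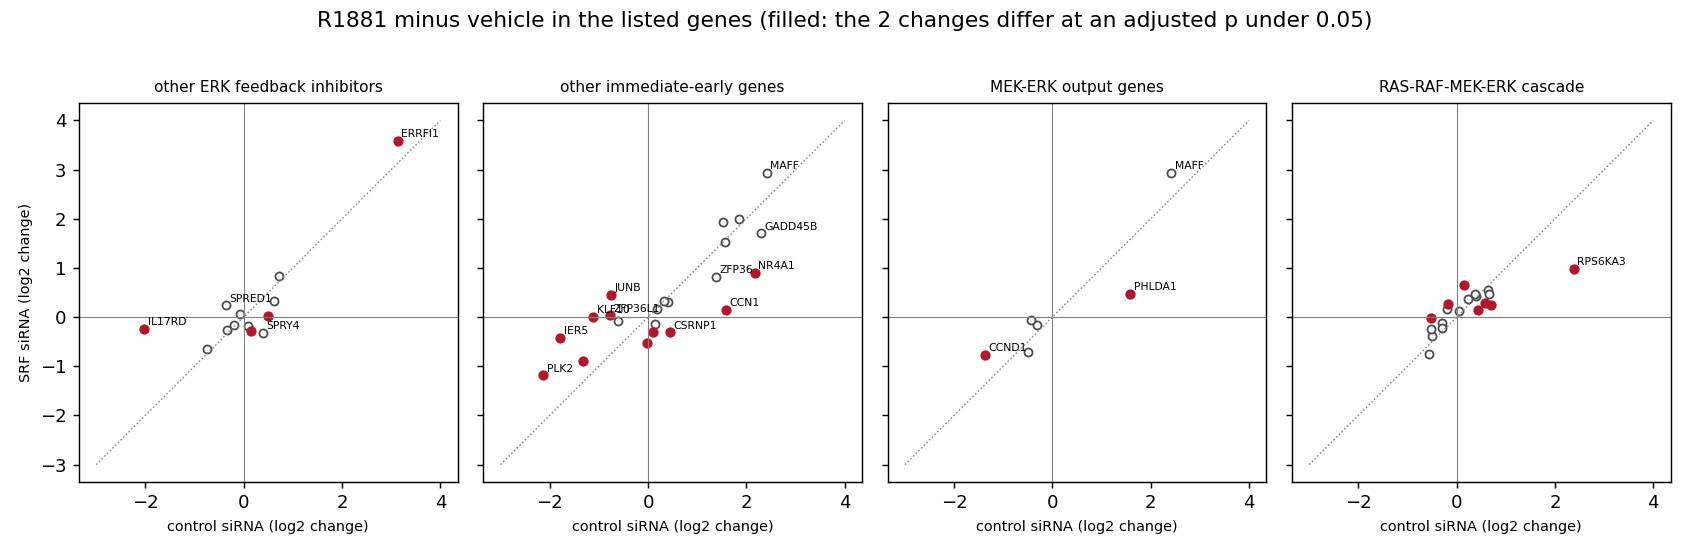
Log2 change with R1881 in SRF siRNA cells (vertical axis) against control siRNA cells (horizontal axis) for the tested genes of 4 lists, with 1 point per gene and a dotted line of equal change; filled points have an adjusted p under 0.05 for the difference. JUNB lies above 0 with SRF siRNA (0.45) and below it with control siRNA (-0.75), and CCN1 and RPS6KA3 lie well below the line.

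Of 10 listed output genes of MEK and ERK, 6 were tested. R1881 raised 2 and lowered 2 of the 6 with SRF siRNA (66.7% called, against 53.1% of all genes), and raised 2 and lowered 4 with control siRNA (100%, against 60.6%). MAFF, raised with both siRNAs, was also counted among the other immediate-early genes. LIF, lowered with control siRNA, averaged 3.79 with control siRNA and R1881, under 4, so the size of its change depends on the background estimate. Cyclin D1 (CCND1), which drives entry into S phase, fell with R1881, with changes of -0.77 ± 0.11 with SRF siRNA and -1.37 ± 0.11 with control siRNA, and the difference was 0.60 ± 0.16 (adjusted p = 0.0198). SRF siRNA raised CCND1 by 1.29 ± 0.11 under R1881 and 0.70 ± 0.11 under vehicle. PHLDA1 rose with R1881 by 0.47 ± 0.11 with SRF siRNA and 1.58 ± 0.11 with control siRNA, a difference of -1.11 ± 0.15 (adjusted p = 0.000301). ETV4 and ETV5, ETS factors often read as ERK output, stayed below 4 throughout, with highest values of 2.76 and 3.02.

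Within the cascade from receptors to ERK, 19 of 25 listed genes were tested, and R1881 raised 10 and lowered 3 with SRF siRNA (68.4% called, against 53.1% of all genes), and raised 9 and lowered 5 with control siRNA (73.7%, against 60.6%). RPS6KA3 (RSK2), a kinase that ERK activates, rose by 0.98 ± 0.10 with SRF siRNA and 2.38 ± 0.10 with control siRNA, a difference of -1.40 ± 0.15 (adjusted p = 4.5e-05). SRF siRNA raised 8 and lowered 5 of the 19 under R1881 (68.4% called, against 59%), and raised 5 and lowered 5 under vehicle (52.6%, against 55.7%). EGFR, the EGF receptor, fell with SRF siRNA, with changes of -1.15 ± 0.07 under R1881 and -1.07 ± 0.07 under vehicle, and MAPK3 (ERK1) fell too, with changes of -0.41 ± 0.09 under R1881 and -0.54 ± 0.09 under vehicle. RPS6KA2, another RSK, rose with SRF siRNA by 0.74 ± 0.08 under R1881 and 1.19 ± 0.08 under vehicle.

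All 5 listed partners of SRF were tested. SRF siRNA raised 1 and lowered 1 of the 5 under R1881 (40% called, against 59% of all genes). Under vehicle it raised 1 and lowered 2 (60%, against 55.7%). ELK4, a ternary complex factor, rose with SRF siRNA by 0.47 ± 0.07 under R1881 and 0.80 ± 0.07 under vehicle. MRTFB, an actin-regulated coactivator of SRF, fell with SRF siRNA, with changes of -0.97 ± 0.09 under R1881 and -0.94 ± 0.09 under vehicle. These transcripts were measured 48 h after hormone, and no measurement of ERK phosphorylation or of any protein was used here.

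Each tested member was set against all other tested genes by Pearson correlation over the 12 arrays, as a description: the arrays fall into 4 groups, so genes with the same order of groups score high. DUSP5 was most like TMEM87B (r = 0.985) and MON1B (0.984), DUSP10 like COPB2 (0.985) and MRFAP1L2 (0.982), and JUN like PAQR3 (0.984) and AFF1 (0.982). SPRY1 was most like TPCN1 (0.941) and PCNX4 (0.940), DUSP4 like SEC22A (0.934) and NECTIN1 (0.930), and IER2 like ZNF286A (0.931) and ANKRD50 (0.930). None of these 12 genes is a member. Between members, the highest coefficient was 0.644, for DUSP4 with DUSP5, and the lowest was -0.874, for DUSP10 with IER2, which are high and low on the same arrays of control siRNA with R1881.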

How the data were processed

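RNA of LNCaP cells was profiled on 12 Affymetrix arrays. The deposited values are log2 signals, 1 per probe set and array, made with GCRMA per the submitters' processing notes (version not given in the sources used here); the log2 scale was read from the values. The medians of the 12 arrays lay between 2.97 and 3.06, so the values were used unscaled. The number of arrays limits the precision. Of 54675 probe sets, 41091 had 1 symbol in the platform annotation and 62 were controls; 21584 passed the filter and 18676 of those had 1 symbol. Group means were estimated for 10265 genes in 1 linear model with limma 3.58.1 in R 4.3.3, with further fits over the 21584 and over all 54675 probe sets. Correlations between arrays were 0.996 to 0.998 within groups and 0.966 to 0.988 between them. The fit was tested on simulated data. Members, gene lists and tests were chosen with earlier results of these data known. Named were all members with every probe set, SRF, and the 2 genes most like each member. List genes were picked from up to 3 called genes per direction and comparison with the largest change, and not all of these are named. The SRF partner and below-filter genes, and second mentions of a gene in another comparison, fall outside that rule. Alternatives changed the filter, floor, probe set choice, scaling, variance model, arrays, covariates and thresholds. Figures used matplotlib 3.10.9 in Python 3.11.15.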

Additional observations from a re-analysis of the deposited data

Results flagged for a closer look

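For 2 of the 6 tested members the effect of R1881 in silenced cells differed from that in control cells by a test of the difference itself. For SPRY1 the difference, SRF siRNA minus control siRNA, was 1.64 on the log2 scale (adjusted p = 4.82e-05 in limma), with 3 of 3 R1881 arrays above all vehicle arrays under SRF siRNA and 3 of 3 below them under control siRNA. Such separation of R1881 from vehicle arrays, in either direction, held for 59.2% of all genes with SRF siRNA and 67.5% with control siRNA. For DUSP10 the difference of R1881 effects was -0.60 (adjusted p = 0.00192), with all 3 arrays of control siRNA and R1881 above the other 9. No test for outlying arrays was made, since groups of 3 are too small for it.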

How the results depend on the processing

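Member genes called under each alternative stayed within 1.5 times the reported counts in most settings. For R1881 in control cells the count of 5 became 3 with the GAPDH difference as a covariate, 3 at an adjusted p under 0.01 and 1 with at least a 2-fold change. With the 2-fold rule the other counts became 1 (R1881, SRF siRNA), 2 (SRF siRNA, R1881), 1 (SRF siRNA, vehicle) and 1 (difference of effects). Leaving out each array in turn gave 2 to 3 calls for R1881 with SRF siRNA, 4 to 5 with control siRNA, 4 to 6 for SRF siRNA under R1881, 3 under vehicle and 2 for the difference. Of 774 alternative values for single genes, 729 kept direction and call, 34 lost the call, 1 gained it and 10 turned direction. The DUSP5 difference turned to 1.17 with a floor at 4 and to 0.0914 with the GAPDH covariate, and ran from -0.411 to 0.0745 with single arrays left out (highest without control vehicle replicate 1). The DUSP10 change with SRF siRNA under vehicle, not called, turned to -0.0299 with probe sets averaged and ran from -0.0042 (without SRF siRNA vehicle replicate 1) to 0.11 with single arrays left out. DUSP4, also not called, turned to -0.22 for R1881 in control cells with the GAPDH covariate, and ran from -0.0205 to 0.013 for SRF siRNA under vehicle with single arrays left out, turning direction in 4 of these fits. DUSP4's R1881 call with SRF siRNA was also lost with no filter (adjusted p = 0.0672) and with a trended, robust variance (adjusted p = 0.0959). The causes were not tested. With the replicate number as a block the counts were 5, 3, 3, 5 and 2, and no call changed. Deviations of same-numbered arrays correlated from -0.214 to 0.099, and 4 of 12 arrays correlated best with their own number. No shared deviation by number was seen, but this check cannot show that same-numbered arrays were handled separately. Signals below 4, as for EGR1, DUSP6, SPRY2 and IER3, limit what can be read.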
